A study of Mus musculus with 48 samples.

Results

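The glucocorticoid-responsive genes described here are 10 genes of the count table: Nr3c1, which encodes the glucocorticoid receptor, and 9 genes known to respond to it, Fkbp5, Sgk1, Tsc22d3, Zbtb16, Klf9, Pdk4, Cdkn1a, Mt1 and Mt2. They were chosen by name, as a short list of well-known receptor targets, from 25229 gene symbols. All 10 passed the filter on low counts in both tissues. Sequenced RNA came from arcuate nucleus micropunches, a hypothalamic site of hunger control, and from left nodose ganglia, where vagal sensory neurons have their cell bodies. All mice were male C57Bl/6J animals, 10 to 12 weeks old, with floxed alleles of Nr1d1 and Nr1d2 (Reverba/b fl/fl), the genes of the clock repressors REV-ERBα and REV-ERBβ. The Control group received AAV8-TBG-EGFP and the HepDKO group AAV8-TBG-Cre by tail vein at 6 to 10 weeks of age, and tissue was taken 2 to 4 weeks later. The TBG promoter is active in hepatocytes, so Cre was directed at the liver and not at either tissue sequenced, and the Control mice carried the floxed alleles too. Mice were kept at 27 C on chow ad libitum under 12 h of light and 12 h of dark. Collection times were ZT4, ZT10, ZT16 and ZT22, where ZT (zeitgeber time) counts hours from lights on, with 3 libraries labelled as biological replicates in each of 16 groups of tissue, genotype and time, 48 in all. Each library was a pool of several mice, 3 (up to 4 in the design text) for arcuate and 4 for nodose.

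Corticosterone, the main glucocorticoid of mice, enters cells and binds the glucocorticoid receptor, which leaves its chaperones, moves to the nucleus and binds DNA at palindromic response elements. In nocturnal mice plasma corticosterone is low in the morning and rises towards lights off, and it also rises within minutes of stress. Target genes follow it at different speeds, and several of them (Fkbp5, Tsc22d3, Sgk1, Per1) are widely read as a transcript record of recent exposure. Corticosterone itself was not measured in these files.

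Arcuate libraries held 15483922 to 20399718 counts and nodose libraries 1813994 to 10422914. All levels below are counts scaled to the effective size of the library (CPM). That size is the total over genes kept by the filter, multiplied by the library's TMM scaling factor from edgeR. Since the labels give a different library preparation for each tissue, a difference between tissues cannot be told from a difference in preparation. Arcuate neuron markers were present in every arcuate library (107 to 205 CPM summed over 5 genes). The nodose libraries were poor in the labelled cells: general neuron markers summed to 23.3 to 81.0 CPM over 5 genes, and the sensory neuron markers P2rx2 and Scn10a had a median of 0, while skeletal muscle markers summed to 3454 to 65313 CPM and Schwann cell markers to 15161 to 40586 CPM. The nodose values below are therefore values of the tissue as collected, and fewer cells of a type and less RNA per cell cannot be told apart in such bulk samples. Besides the pair of libraries described next, the arcuate HepDKO ZT4 replicate 3 and the nodose HepDKO ZT22 replicate 3 stood apart, holding the highest of 24 values for 21.6% and 19.5% of all genes tested. One HepDKO ZT10 library of each tissue held Xist counts (1914 and 1694) although all mice were labelled male.

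In both tissues the library labelled Control ZT22 replicate 1 stood apart in these genes more than in others. In arcuate it held the highest of 24 values for 7 of the 10 genes, against 11.4% of all genes tested, and in nodose for 8 of 10, against 3.37% of all genes tested. No other library was highest for more than 1 of the 10. Of further listed glucocorticoid-responsive genes, Control ZT22 replicate 1 held the highest value for 15 of 28 tested in arcuate and 15 of 27 in nodose. Set against the mean of the other 2 Control ZT22 libraries of its tissue, it was 2.38-fold higher in arcuate and 4.29-fold in nodose for Fkbp5, and 3.56-fold and 2.63-fold for Zbtb16. For Tsc22d3 it was 1.94-fold and 2.60-fold higher, for Sgk1 3.36-fold and 1.77-fold, and for Klf9 1.69-fold and 2.09-fold. Mt2 was 1.61-fold and 7.59-fold higher, and Cdkn1a 4.73-fold and 1.495-fold. The receptor gene itself was not higher, at 0.917-fold and 0.770-fold. The median log2 difference of the 10 genes was 0.88 in arcuate and 1.38 in nodose, where the medians of all genes were -0.01 and -0.04.

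Among 12982 genes at or above 1 CPM in the libraries compared, 78 were at least 2-fold higher in this library in arcuate and 167 in nodose. Both lists held 12 genes, 15.4% of the arcuate list, 7.19% of the nodose list and 0.0924% of the genes compared, while 7 were at least 2-fold lower in both. Besides Fkbp5 and Zbtb16, the 12 included Hif3a (4.25-fold and 7.77-fold), Plin4 (6.86-fold and 2.40-fold), Map3k6 (2.72-fold and 3.98-fold), Arrdc2 (3.04-fold and 3.76-fold), Maff, Arl4d, Csrnp1, Mertk, Inhba and Edn1. Of 26 genes compared from a further list of glucocorticoid-responsive genes (below), 5 were among the 12. Over all genes, the deviations of these 2 libraries from their groups had a correlation of 0.0424. The labels do not say whether arcuate and nodose pools of the same number came from the same mice, and the library was singled out after these genes' values were seen. Of the marker lists reported, its arcuate sums were the highest of 24 for neuron (2872 CPM), endothelial (150.0 CPM) and adipocyte (0.685 CPM) markers and the lowest for tanycyte markers (96.6 CPM). They were next to the highest for oligodendrocyte markers (1286 CPM, against a median of 866 over the 24) and Schwann cell markers (2173 against 1639.9). They were next to the lowest for microglia and macrophage markers (121 against 135) and choroid plexus markers (18.1 against 23.3). Its nodose sum was the highest for choroid plexus markers; their part in the difference was not tested. The tests of the 10 genes below are given with all libraries and without this one.

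**Figure D1:**
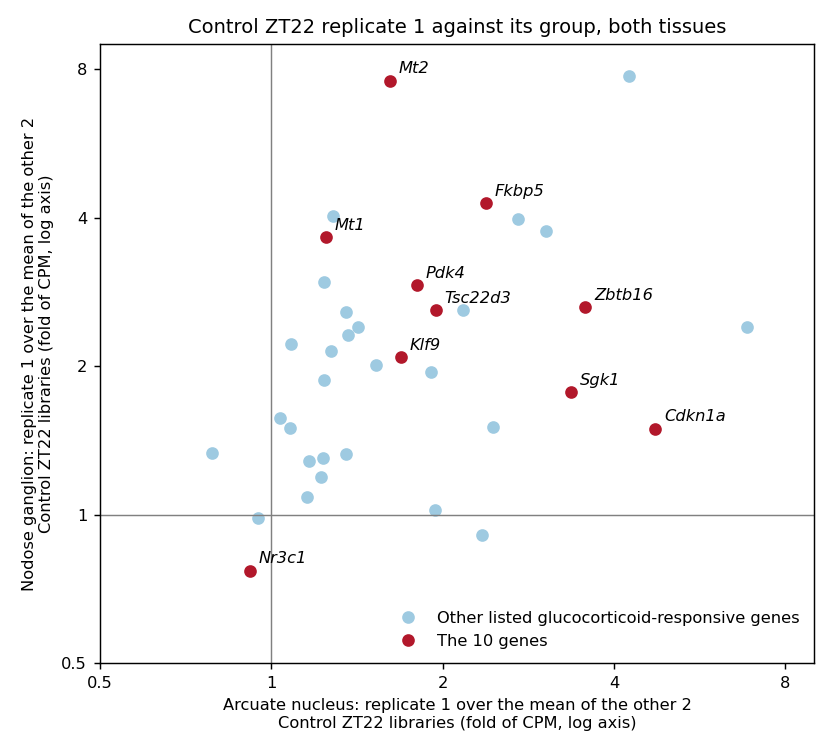
Fold of the library labelled Control ZT22 replicate 1 over the mean of the other 2 Control ZT22 libraries of the same tissue, arcuate on the x axis and nodose on the y axis, both log scaled; each point is a gene, red for the 10 genes and blue for other listed glucocorticoid-responsive genes. Fkbp5 (2.38 and 4.29) and Zbtb16 (3.56 and 2.63) lie far out on both axes, while Nr3c1 (0.917 and 0.770) lies below 1 on both.

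Averaged over genotypes, edgeR's quasi-likelihood test called a 24-h rhythm in 0 of the 10 genes with all arcuate libraries, where 622 of 16102 genes passed (3.86%) and unadjusted p was under 0.05 for 3479. DESeq2, with all libraries, called 1107 genes and 3 of the 10, Fkbp5 (adjusted p = 0.0378), Tsc22d3 (0.0469) and Mt1 (0.00540). Without Control ZT22 replicate 1 the rhythm passed in edgeR in 6 of 10 (Fkbp5, Sgk1, Tsc22d3, Klf9, Mt1 and Mt2), where 4.36% of all genes passed. In nodose it passed in edgeR in 1 of 10 (Sgk1) with all libraries, against 1.33% of all genes, and in 4 of 10 (Fkbp5, Sgk1, Mt1 and Mt2) without the library, against 1.31%. DESeq2 with all nodose libraries called 359 genes and 3 of the 10, Sgk1 (adjusted p = 0.00162), Fkbp5 (0.0466) and Mt1 (0.0498). Control ZT22 replicate 1 was singled out on the values of these genes, and leaving it out can narrow their spread. Here and below, calls and p-values without it are therefore not fairly set against the shares of all genes. The calls below are those of edgeR. The median amplitude, from mean to peak on the log2 scale, was 0.23 over the 10 genes in arcuate and 0.07 over all genes, and 0.36 and 0.12 in nodose. Without the library the medians of the 10 genes were 0.27 in arcuate and 0.42 in nodose. Times 6 h apart, as here, give a peak time as a fitted value only.

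**Figure D2:**
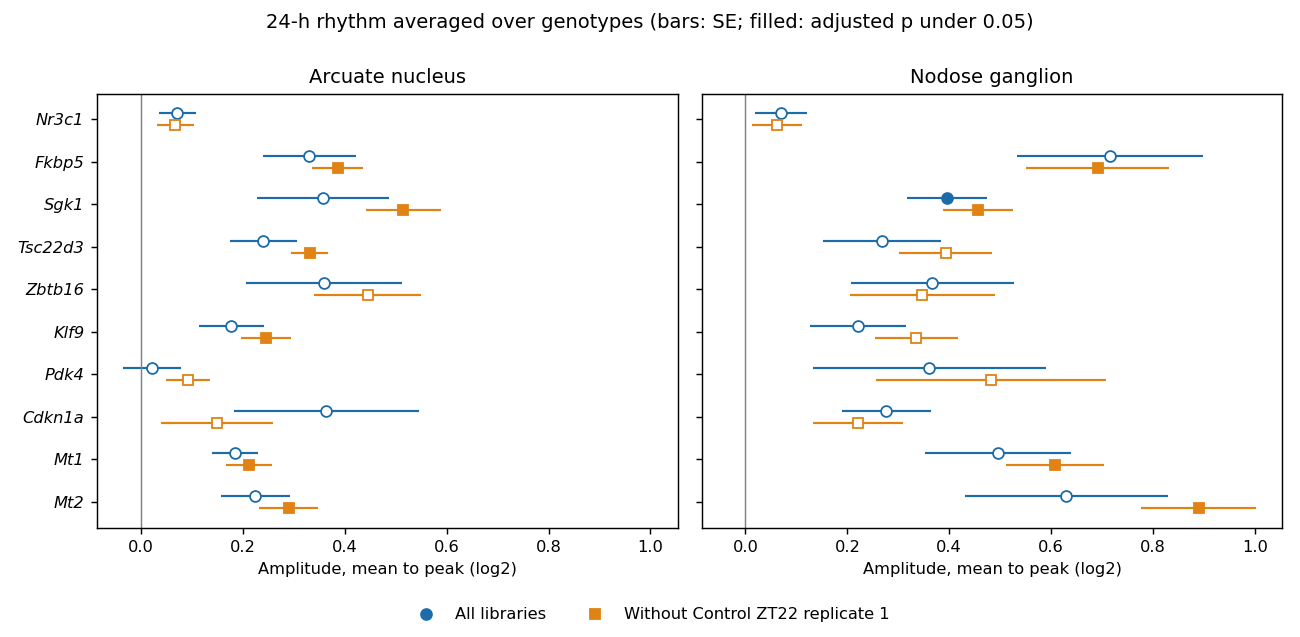
Amplitude of the 24-h rhythm averaged over genotypes, log2 mean to peak, for each of the 10 genes in arcuate and nodose, with bars of 1 standard error; circles use all libraries, squares leave out Control ZT22 replicate 1, and filled symbols have an adjusted p under 0.05. In arcuate no circle is filled and 6 squares are; in nodose Sgk1 is filled in both settings and Fkbp5, Mt1 and Mt2 as squares.

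Within a genotype, no rhythm of the 10 genes passed with all libraries in either tissue (0 of 10 in each of 4 tests, where edgeR called 0.261% and 0.379% of genes in arcuate Control and HepDKO, and 0.242% and 0.121% in nodose). Unadjusted p was under 0.05 for 1245 and 2797 genes in arcuate and 1320 and 1083 in nodose, and DESeq2 called 100 and 405 genes in arcuate and 125 and 67 in nodose. Without the library, Fkbp5 (amplitude 0.42, adjusted p = 0.0226) and Tsc22d3 (0.38, adjusted p = 0.00152) passed in arcuate Control, against 0.35% of all genes. In arcuate HepDKO, Fkbp5 (0.35, adjusted p = 0.0474), Sgk1 (0.63, adjusted p = 0.0150) and Tsc22d3 (0.30, adjusted p = 0.00640) passed, against 0.755%. The HepDKO amplitudes of these 3 genes had the same values with all libraries; leaving out the Control library changed the spread they share. In nodose, Mt2 passed in Control (1.05, adjusted p = 0.0151, against 0.225% of genes) and none of the 10 in HepDKO (against 0.178%, 27 genes).

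The difference in rhythm between genotypes passed for 0 genes of all tested in either tissue, by edgeR and by DESeq2 (0% called). Unadjusted p was under 0.05 for 382 genes in arcuate and 421 in nodose. Among the 10 genes the lowest unadjusted p was that of Mt2 in each tissue, 0.0549 in arcuate, with a fitted amplitude of 0.38 in HepDKO and 0.15 in Control, and 0.0453 in nodose, with 0.79 and 0.87. With Control ZT22 replicate 1 left out, edgeR again called 0 genes in either tissue, with unadjusted p under 0.05 for 572 genes in arcuate and 319 in nodose. The unadjusted p of Mt2 was then 0.0525 in arcuate (amplitude 0.38 in HepDKO and 0.26 in Control) and 0.0744 in nodose (0.78 and 1.05). A p that misses the threshold does not show that the genotypes have the same rhythm.

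Nr3c1 (chr18:39410545-39519421, minus strand, GRCm38) encodes the receptor through which the other genes answer corticosterone. In arcuate it ran from 82.5 to 141 CPM, and 23 of 24 libraries lay between 116 and 141 CPM; the low value was that of the arcuate HepDKO ZT4 replicate 3, the library that stood apart. In nodose it ran from 160.4 to 278 CPM, with its lowest value again in a library that stood apart, HepDKO ZT22 replicate 3. No rhythm of Nr3c1 passed: the amplitude was 0.07 (SE 0.0358, adjusted p = 0.400) in arcuate and 0.07 (SE 0.0507, adjusted p = 0.774) in nodose, and without Control ZT22 replicate 1 it was 0.07 (adjusted p = 0.461) and 0.06 (adjusted p = 0.831). Without HepDKO ZT4 replicate 3 the arcuate amplitude was 0.0379, the lowest with any 1 library left out. Per kilobase of exon the place of Nr3c1 among the 10 genes was 5 from the top in arcuate and 7 in nodose.

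Per kilobase of exon, the metallothioneins led in arcuate, with median levels of 145 CPM per kb for Mt2 and 121 for Mt1, followed by Tsc22d3 (32.6), Klf9 (23.3), Nr3c1 (19.8), Sgk1 (13.3), Fkbp5 (6.31), Cdkn1a (4.77), Zbtb16 (4.44) and Pdk4 (2.39). In nodose the order was Tsc22d3 (106), Pdk4 (105), Mt2 (93.7), Cdkn1a (57.3), Klf9 (46.8), Sgk1 (44.3), Nr3c1 (35.4), Zbtb16 (31.6), Mt1 (30.7) and Fkbp5 (12.9). Pdk4, which is abundant in muscle, was thus last in the one tissue and second in the other. Over libraries, each gene overlapped the next in these orders except Mt1 and Tsc22d3 in arcuate, and levels across the tissues also differ by preparation.

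**Figure D3:**
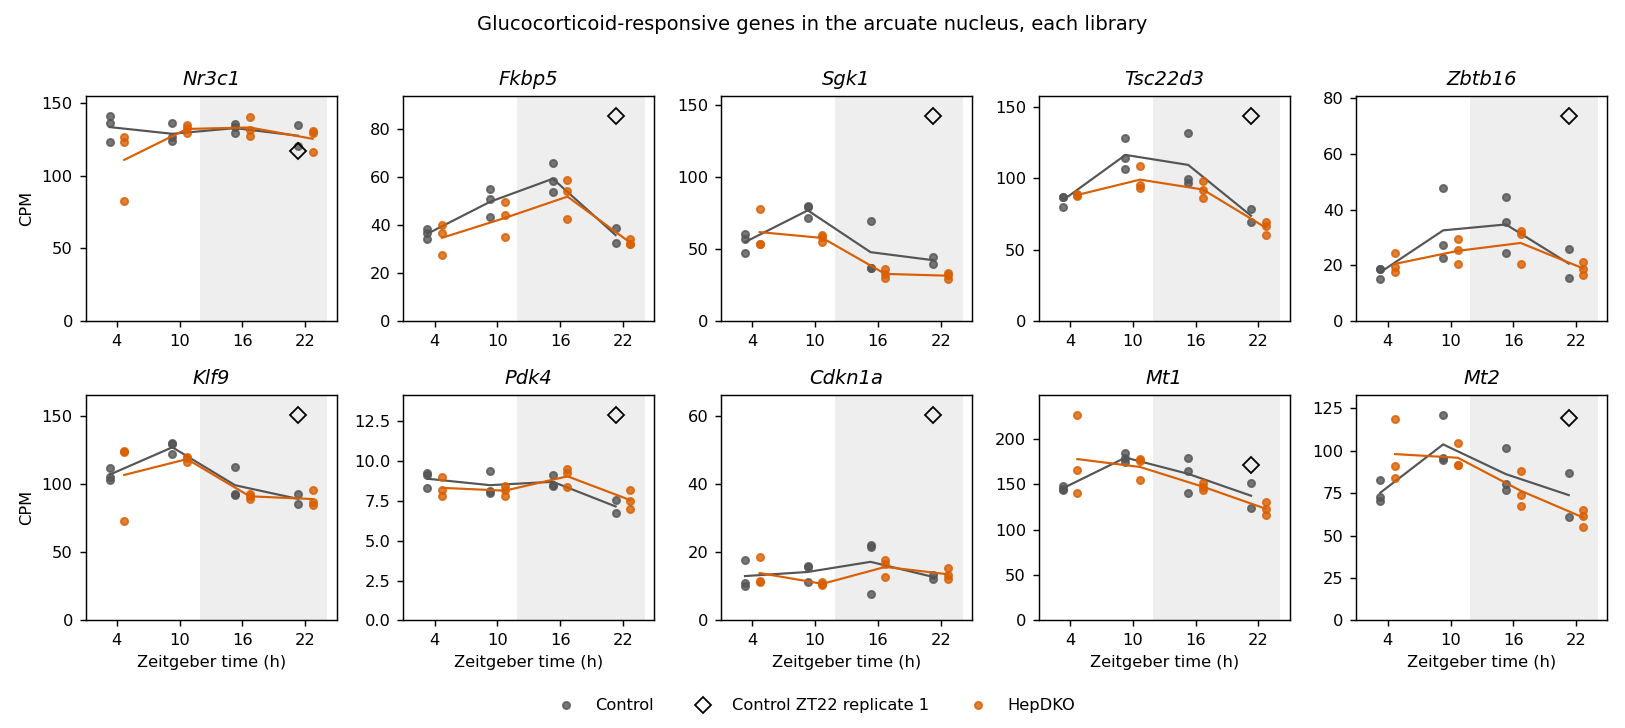
CPM of each gene in the 24 arcuate libraries by zeitgeber time; points are libraries (Control grey, HepDKO orange), lines join group means without Control ZT22 replicate 1, the open diamond is that library, and the shading marks the dark phase. The diamond is the highest point for 7 genes, among them Fkbp5 at 85.4 CPM where the other Control ZT22 libraries are at 39.0 and 32.7.

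Fkbp5 (chr17:28399094-28517527, minus strand) encodes a co-chaperone that the receptor induces and that in turn lowers the receptor's affinity for hormone, a short negative feedback loop. In arcuate Control it measured 36.5, 38.5 and 34.1 CPM at ZT4, 55.0, 43.2 and 51.0 at ZT10, 53.8, 58.3 and 65.9 at ZT16, and 85.4, 39.0 and 32.7 at ZT22. In arcuate HepDKO it measured 36.6, 39.9 and 27.7 CPM at ZT4, 44.0, 35.2 and 49.7 at ZT10, 42.7, 58.7 and 54.3 at ZT16, and 34.0, 32.0 and 32.1 at ZT22. With Control ZT22 replicate 1 set aside, all 6 Control libraries of ZT10 and ZT16 were above all 5 of ZT22 and ZT4, whereas in HepDKO the groups overlapped. The difference of the ZT10 and ZT16 mean from the ZT22 and ZT4 mean, called evening minus morning here, was 0.40 on the log2 scale (SE 0.129, adjusted p = 0.192) with all arcuate libraries and 0.54 (SE 0.0728, adjusted p = 0.000362) without that 1. The rhythm had an amplitude of 0.33 (SE 0.0912, fitted peak ZT15.1, adjusted p = 0.0994) with all libraries and 0.39 (SE 0.0507, peak ZT13.7, adjusted p = 0.000468) without.

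The range of Fkbp5 was wider in nodose. Nodose Control libraries measured 31.4, 50.4 and 57.9 CPM at ZT4, 139, 82.1 and 102 at ZT10, 132, 248 and 144 at ZT16, and 324, 47.0 and 104 at ZT22. Nodose HepDKO libraries measured 36.5, 86.6 and 67.4 CPM at ZT4, 85.2, 73.0 and 71.7 at ZT10, 84.0, 143 and 114 at ZT16, and 67.9, 61.1 and 155 at ZT22. In Control the ZT4 libraries were below all those of ZT10 and ZT16, while ZT10 overlapped ZT16 and ZT22 overlapped each of the others; in HepDKO every time overlapped every other. The highest of the 24 was Control ZT22 replicate 1 at 324 CPM, and the HepDKO ZT22 replicate 3, at 155 CPM, was also above the other libraries of its group. The amplitude was 0.72 (SE 0.182, peak ZT17.2, adjusted p = 0.134) with all libraries and 0.69 (SE 0.140, peak ZT15.7, adjusted p = 0.0438) without Control ZT22 replicate 1; without Control ZT22 replicate 2 it also passed (adjusted p = 0.0485), and without HepDKO ZT22 replicate 3 it did not (adjusted p = 0.113). With muscle and adipocyte scores (the mean log2 CPM of each marker list) as covariates and without Control ZT22 replicate 1 it was 0.76 (adjusted p = 0.0375). The evening minus morning difference in nodose was 0.46 (adjusted p = 0.530), and 0.74 without Control ZT22 replicate 1 (adjusted p = 0.109), and passed in neither setting.

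The 300 bases around a gene's start were taken from RefSeq (GRCm38.p6, 250 before and 50 after), and windows of 8 of the 10 genes were used. They were searched on both strands for the palindromic glucocorticoid response element (the half-site AGAACA, any 3 bases, then its reverse complement). The half-site AGAACA alone, the metal response element core as TGCGCNC only, the E-box CACGTG of clock factors and the D-box TTATGTAA were searched too. Among 32851 such windows of the genome these letters are in 0.00913%, 19.0%, 15.4%, 7.15% and 0.938% respectively; the half-site is part of the full element. For genes whose rhythm passed in some setting and that have a match, 1 window each is shown, with matches in capitals. Positions count from 1 at the first transcribed base and are negative before it, with no 0. The Fkbp5 window (chr17:28486100-28486399, minus strand) holds 1 E-box at position -169 and no half-site.
Fkbp5: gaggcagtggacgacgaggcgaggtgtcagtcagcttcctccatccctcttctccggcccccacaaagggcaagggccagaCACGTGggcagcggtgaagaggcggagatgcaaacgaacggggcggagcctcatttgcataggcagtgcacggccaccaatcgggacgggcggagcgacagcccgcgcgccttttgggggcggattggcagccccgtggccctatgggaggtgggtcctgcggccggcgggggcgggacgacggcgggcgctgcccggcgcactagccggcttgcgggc

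Sgk1 (chr10:21882184-21999903, plus strand) encodes a kinase that acts on ion channels and transporters and is induced within hours of hormone. Its pattern differed from that of Fkbp5 in that the high point came earlier, in the light phase. In arcuate Control it measured 60.3, 56.9 and 47.4 CPM at ZT4, 79.0, 71.7 and 79.9 at ZT10, 36.9, 36.9 and 69.9 at ZT16, and 142, 44.9 and 39.7 at ZT22. In arcuate HepDKO it measured 78.0, 53.9 and 53.6 CPM at ZT4, 58.5, 55.1 and 59.7 at ZT10, 29.7, 36.0 and 32.8 at ZT16, and 29.2, 32.3 and 33.3 at ZT22. The 3 libraries of ZT10 were the highest of Control apart from ZT22 replicate 1 (142 CPM), just above ZT16 replicate 3 at 69.9 CPM; HepDKO libraries of ZT4 and ZT10 were all above those of ZT16 and ZT22. The amplitude was 0.36 (SE 0.129, peak ZT6.58, adjusted p = 0.217) with all libraries and 0.52 (SE 0.0732, peak ZT7.81, adjusted p = 0.00185) without. Evening minus morning was -0.06 (adjusted p = 0.938) with all arcuate libraries and 0.15 (adjusted p = 0.601) without, since its higher time points, ZT4 and ZT10, lie on either side of that contrast.

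In nodose, Sgk1 in Control measured 231, 178 and 191 CPM at ZT4, 255, 235 and 244 at ZT10, 120.4, 182 and 128 at ZT16, and 269.5, 149 and 155 at ZT22. In HepDKO it measured 145, 205 and 239 CPM at ZT4, 245, 201 and 239 at ZT10, 122, 132 and 127 at ZT16, and 108, 174 and 117 at ZT22. All 6 libraries of ZT10 were at or above 201 CPM and all 6 of ZT16 at or below 182 CPM, so that these times did not overlap, while ZT4 (145 to 239 CPM) overlapped both. Sgk1 was the 1 gene of the 10 that edgeR called in nodose with all libraries, with an amplitude of 0.40 (SE 0.0782, peak ZT7.06, adjusted p = 0.0250), and it passed without Control ZT22 replicate 1 (0.46, SE 0.0690, peak ZT7.60, adjusted p = 0.00285). The call was lost, with adjusted p between 0.0520 and 0.0625, when any 1 of 10 libraries was left out: Control ZT4 replicate 1, ZT10 replicate 1, ZT16 replicate 1 and ZT22 replicate 3, and HepDKO ZT4 replicates 2 and 3, ZT10 replicates 1 and 3, and ZT16 replicates 1 and 3. With muscle and adipocyte scores as covariates it passed (0.39, adjusted p = 0.0350).

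Sgk1 has 6 annotated start windows, of which 4 hold a match: 1 half-site in each of the first (at -195) and the fourth (at -13), a metal response element core in the sixth (at 12), and those of the fifth. The fifth, shown because it holds the full element, lies at chr10:21993640-21993939 (plus strand) and holds a full glucocorticoid response element at position -189, found in 3 of the 32851 windows, and an E-box at position -246 that overlaps a half-site at -242. The element was found in no other window of the 8 genes.
Sgk1: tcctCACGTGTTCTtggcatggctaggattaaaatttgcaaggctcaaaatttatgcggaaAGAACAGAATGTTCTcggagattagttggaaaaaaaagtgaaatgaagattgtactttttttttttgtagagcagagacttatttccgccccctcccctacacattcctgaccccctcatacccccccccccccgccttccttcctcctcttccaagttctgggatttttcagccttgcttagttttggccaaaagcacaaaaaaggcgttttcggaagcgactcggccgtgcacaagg

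Tsc22d3 (chrX:140539528-140600659, minus strand) encodes GILZ, a leucine zipper protein that carries part of the anti-inflammatory action of glucocorticoids. Without Control ZT22 replicate 1 it had the lowest adjusted p of the 10 genes for an arcuate rhythm. In arcuate Control it measured 86.9, 86.9 and 79.5 CPM at ZT4, 128, 106 and 114 at ZT10, 96.3, 99.6 and 132 at ZT16, and 143, 78.4 and 69.0 at ZT22. In arcuate HepDKO it measured 89.2, 88.2 and 87.4 CPM at ZT4, 109, 93.2 and 94.97 at ZT10, 91.7, 86.4 and 97.9 at ZT16, and 69.3, 60.3 and 66.6 at ZT22. Control ZT22 replicate 1, at 143 CPM, was the highest of the 24, while the other 5 libraries of ZT22 were the 5 lowest, at 60.3 to 78.4 CPM. All 6 libraries of ZT10 were at or above 93.2 CPM and all 6 of ZT4 at or below 89.2. The amplitude was 0.24 (SE 0.0659, peak ZT11.8, adjusted p = 0.0947) with all libraries and 0.33 (SE 0.0357, peak ZT11.3, adjusted p = 1.54e-05) without Control ZT22 replicate 1. Evening minus morning was 0.32 (adjusted p = 0.130) and 0.42 (SE 0.0491, adjusted p = 1.58e-05).

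In nodose Control, Tsc22d3 measured 326, 207 and 228 CPM at ZT4, 422, 314 and 405 at ZT10, 306, 557 and 322 at ZT16, and 642, 212 and 283 at ZT22. In nodose HepDKO it measured 169, 271 and 328 CPM at ZT4, 403, 272 and 356 at ZT10, 239.9, 339 and 281 at ZT16, and 207, 225 and 199 at ZT22. ZT10 libraries (272 to 422 CPM) overlapped those of ZT4 (169 to 328), and Control ZT22 replicate 1 at 642 CPM was the highest of the 24. The rhythm did not pass with all libraries (0.27, SE 0.115, adjusted p = 0.485) or without that library (0.39, adjusted p = 0.0766), and it passed when muscle and adipocyte scores were added to the latter (0.52, adjusted p = 0.0356). Evening minus morning was 0.38 (adjusted p = 0.391) and, without the library, 0.54 (SE 0.127, adjusted p = 0.0434). The second of its 3 windows (chrX:140600473-140600772, minus strand) holds 1 half-site at position -185.
Tsc22d3: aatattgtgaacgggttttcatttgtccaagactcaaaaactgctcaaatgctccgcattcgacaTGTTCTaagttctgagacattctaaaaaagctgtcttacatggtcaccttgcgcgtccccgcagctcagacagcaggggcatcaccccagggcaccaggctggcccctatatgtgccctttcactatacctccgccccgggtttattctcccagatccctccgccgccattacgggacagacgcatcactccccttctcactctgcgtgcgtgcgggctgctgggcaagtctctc

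Zbtb16 (chr9:48654297-48836222, minus strand) encodes the zinc finger repressor PLZF, and Klf9 (chr19:23141226-23168134, plus strand) a Krüppel-like factor that links hormone to clock gene transcription; both are receptor targets that regulate transcription themselves. Zbtb16 ranged from 15.3 to 73.5 CPM in arcuate and from 77.1 to 508 CPM in nodose, with Control ZT22 replicate 1 the highest in each. Apart from it, arcuate Control libraries lay at 15.3 to 18.8 CPM at ZT4, 22.6 to 47.9 at ZT10, 24.3 to 44.4 at ZT16 and 15.6 and 25.8 at ZT22. In Control the ZT4 libraries were thus below all those of ZT10 and ZT16. Arcuate HepDKO libraries lay at 17.7 to 24.5 CPM at ZT4, 20.5 to 29.6 at ZT10, 20.5 to 32.3 at ZT16 and 16.7 to 21.1 at ZT22, and there ZT4 overlapped each of the other times. Its arcuate amplitude was 0.36 (SE 0.153, adjusted p = 0.315) and, without the library, 0.45 (SE 0.105, peak ZT13.5, adjusted p = 0.0514), which did not pass. In nodose it was 0.37 (adjusted p = 0.497) and 0.35 (adjusted p = 0.488).

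In arcuate, Klf9 was higher at ZT10 than at ZT16 in both genotypes. The libraries of ZT10 lay at 116 to 130.1 CPM in both genotypes and those of ZT16 at 88.9 to 113 CPM, without overlap. At ZT4 they lay at 103 to 124 CPM except for HepDKO ZT4 replicate 3 at 72.7, and at ZT22 at 84.5 to 95.5 CPM except for Control replicate 1 at 151. The amplitude was 0.18 (SE 0.0641, peak ZT8.09, adjusted p = 0.212) with all libraries, 0.25 (SE 0.0491, peak ZT8.65, adjusted p = 0.0180) without Control ZT22 replicate 1 and 0.21 (adjusted p = 0.0634) without HepDKO ZT4 replicate 3. In nodose, libraries of ZT10 lay at 216 to 322 CPM and those of the other times at 132 to 356 CPM, with overlap, and the rhythm did not pass (0.22, adjusted p = 0.478, and 0.34, adjusted p = 0.0970, without the library).

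Pdk4 and Cdkn1a showed no rhythm that passed in either tissue or setting. Pdk4 (chr6:5483351-5496309, minus strand) encodes a kinase that turns pyruvate away from oxidation, and it is induced by glucocorticoids and fasting. Arcuate libraries lay at 6.75 to 9.53 CPM apart from Control ZT22 replicate 1 at 12.9, with an amplitude of 0.02 (adjusted p = 0.963), and 0.09 (adjusted p = 0.371) without it. In nodose it spread widely, from 90.2 to 1249.6 CPM, with Control ZT16 libraries at 90.2, 444 and 92.1 and Control ZT22 libraries at 1249.6, 237 and 619. The nodose amplitude was 0.36 (SE 0.228, adjusted p = 0.713), and 0.48 (adjusted p = 0.590) without Control ZT22 replicate 1. In the nodose libraries, summed skeletal muscle markers ran from 3454 to 27998 CPM in the same Control ZT16 group; the part of muscle in the Pdk4 level was not tested.

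Cdkn1a (chr17:29090976-29100727, plus strand) encodes p21, an inhibitor of the cell cycle induced by p53 and by glucocorticoids. In arcuate, Control ZT22 replicate 1 was at 60.2 CPM and all other libraries at 7.82 to 22.2. The arcuate amplitude was 0.36 (SE 0.181, adjusted p = 0.410) with that library and 0.15 (adjusted p = 0.652) without. In nodose it ran from 107 to 256 CPM, with a fitted peak at ZT22.5 that did not pass (amplitude 0.28, SE 0.0871, adjusted p = 0.256, and 0.22, adjusted p = 0.463, without the library).

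Mt1 (chr8:94179082-94180327, plus strand) and Mt2 (chr8:94172664-94173568, plus strand) are neighbours that encode metallothioneins, small proteins that bind zinc and copper and are induced by both metals and glucocorticoids. Their sequences are alike, and how reads shared between the 2 were counted is not given. Without Control ZT22 replicate 1, Mt2 had the largest nodose amplitude of the 10 genes. In nodose Control, Mt2 measured 29.9, 42.9 and 41.0 CPM at ZT4, 107, 58.8 and 73.5 at ZT10, 77.8, 133 and 160.5 at ZT16, and 260.3, 25.3 and 43.3 at ZT22. In nodose HepDKO it measured 26.6, 55.9 and 48.7 CPM at ZT4, 63.0, 47.4 and 60.0 at ZT10, 54.3, 72.7 and 79.2 at ZT16, and 25.6, 21.97 and 15.3 at ZT22. Apart from Control ZT22 replicate 1 at 260.3 CPM, all libraries of ZT22 and ZT4 lay at 15.3 to 55.9 CPM, and those of ZT10 and ZT16 at 47.4 to 160.5 CPM, with HepDKO ZT10 replicate 2 and HepDKO ZT16 replicate 1 inside the lower range. The Mt2 amplitude in nodose was 0.63 (SE 0.199, adjusted p = 0.272) with all libraries and 0.89 (SE 0.113, peak ZT12.8, adjusted p = 0.000725) without that library. Evening minus morning was 0.82 (adjusted p = 0.246) and 1.26 (SE 0.158, adjusted p = 0.000239).

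Mt1 in nodose Control measured 29.4, 34.2 and 49.6 CPM at ZT4, 58.7, 37.2 and 63.8 at ZT10, 55.4, 76.4 and 138 at ZT16, and 113, 32.8 and 29.3 at ZT22. In nodose HepDKO it measured 26.0, 33.7 and 37.2 CPM at ZT4, 47.4, 32.8 and 39.4 at ZT10, 51.0, 50.7 and 54.2 at ZT16, and 25.8, 22.4 and 25.3 at ZT22. The ZT16 libraries (50.7 to 138 CPM) were above those of ZT4 (26.0 to 49.6) and of ZT22 (22.4 to 32.8) except Control ZT22 replicate 1 at 113. The amplitude was 0.49 (SE 0.143, adjusted p = 0.200) with all libraries and 0.61 (SE 0.0957, peak ZT13.5, adjusted p = 0.00418) without it, and evening minus morning 0.61 (adjusted p = 0.230) and 0.85 (SE 0.137, adjusted p = 0.00204). Adipocyte markers were also higher in the evening in nodose (5 of 5, median log2 0.72, none called). With muscle and adipocyte scores as covariates the amplitudes were 0.28 for Mt1 (adjusted p = 0.634) and 0.42 for Mt2 (adjusted p = 0.761) with all libraries, and 0.51 (adjusted p = 0.0482) and 0.89 (adjusted p = 0.0137) without Control ZT22 replicate 1.

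In arcuate the metallothioneins were flatter and fitted to peak earlier. In arcuate Control, Mt2 measured 72.9, 70.1 and 82.8 CPM at ZT4, 121, 95.5 and 94.6 at ZT10, 80.2, 76.8 and 101 at ZT16, and 119, 86.9 and 60.7 at ZT22. In arcuate HepDKO it measured 83.9, 91.2 and 119 CPM at ZT4, 104, 91.3 and 91.6 at ZT10, 67.5, 73.6 and 88.1 at ZT16, and 55.2, 61.5 and 65.0 at ZT22. The highest of the 24 was Control ZT10 replicate 1 at 121 CPM, next to Control ZT22 replicate 1 and HepDKO ZT4 replicate 3 at 119 CPM. The amplitude of Mt2 was 0.22 (SE 0.0675, adjusted p = 0.127) and, without Control ZT22 replicate 1, 0.29 (SE 0.0580, peak ZT9.46, adjusted p = 0.0193). Mt1 ranged from 116 to 226 CPM, highest in HepDKO ZT4 replicate 3. Its amplitude was 0.18 (SE 0.0449, peak ZT9.38, adjusted p = 0.0516) with all libraries and passed without Control ZT22 replicate 1 (0.21, adjusted p = 0.0247) and, 1 at a time, without HepDKO ZT4 replicate 2 (adjusted p = 0.0108) or 3 (0.00949), HepDKO ZT10 replicate 3 (0.0489) or Control ZT16 replicate 1 (0.0380). For the metal response element core, the Mt1 window (chr8:94178839-94179138, plus strand) holds 1 match to TGCGCNC at position 21. The Mt2 window (chr8:94172368-94172667, plus strand) holds 1 at -128 and 1 at 5, on opposite strands. Other forms of the core were not searched and are not in capitals.
Mt1: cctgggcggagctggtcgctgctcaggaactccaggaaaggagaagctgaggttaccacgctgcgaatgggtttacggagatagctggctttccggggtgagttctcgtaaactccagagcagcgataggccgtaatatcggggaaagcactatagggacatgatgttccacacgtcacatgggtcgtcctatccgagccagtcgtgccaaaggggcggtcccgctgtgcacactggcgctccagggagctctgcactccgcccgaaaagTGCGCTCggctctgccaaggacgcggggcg
Mt2: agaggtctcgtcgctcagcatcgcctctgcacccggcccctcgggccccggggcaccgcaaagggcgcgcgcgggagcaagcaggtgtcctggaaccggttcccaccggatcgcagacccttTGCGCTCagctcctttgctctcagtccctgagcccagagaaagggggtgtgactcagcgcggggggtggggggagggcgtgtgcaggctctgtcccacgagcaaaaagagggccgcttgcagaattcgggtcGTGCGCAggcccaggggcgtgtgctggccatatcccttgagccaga

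**Figure D4:**
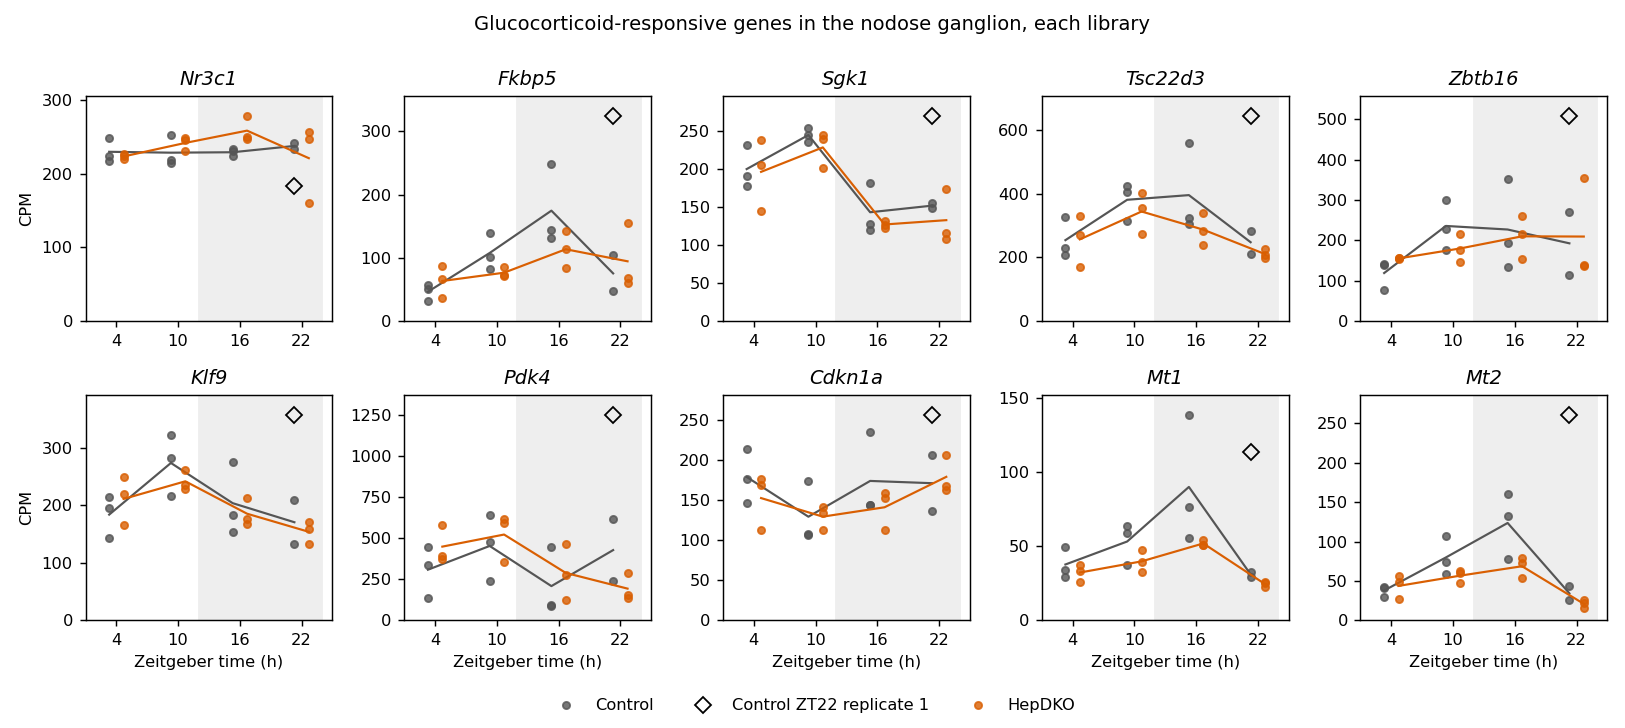
CPM of each gene in the 24 nodose libraries by zeitgeber time, drawn as for arcuate: Control grey, HepDKO orange, group means without Control ZT22 replicate 1 as lines, that library as an open diamond, the dark phase shaded. For Mt2 the diamond is at 260.3 CPM and the other Control ZT22 libraries at 25.3 and 43.3.

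As a contrast with the evening rise of the hormone, evening minus morning passed in 0 of the 10 genes with all libraries in either tissue, where edgeR called 0.795% of genes in arcuate and 0.76% in nodose (unadjusted p under 0.05 for 1938 and 1656 genes; DESeq2 called 257 and 218). The value was positive in 8 of 10 genes in each tissue, with medians of 0.12 in arcuate and 0.21 in nodose against 0.00 and -0.01 over all genes. Without Control ZT22 replicate 1 it passed in 2 of 10 in arcuate (Fkbp5 and Tsc22d3) and 3 of 10 in nodose (Tsc22d3, Mt1 and Mt2), all higher in the evening. Of all genes, 0.883% passed in arcuate and 0.472% did so with a higher value in the evening, and 0.977% and 0.575% in nodose. It was then positive in 10 of 10 genes in arcuate (median 0.17) and in 9 of 10 in nodose (median 0.35).

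None of the 10 genes passed the test of HepDKO against Control over the 4 times. The comparison asks whether loss of REV-ERB in hepatocytes moved glucocorticoid targets in brain and ganglion. In both tissues edgeR called 0 genes of all tested (0%), with unadjusted p under 0.05 for 1387 genes in arcuate and 497 in nodose, and DESeq2 called 25 and 2 genes, none of them among the 10. Nr1d1 and Nr1d2, the floxed genes, did not pass the test either (0.06 and -0.07 in arcuate, 0.06 and 0.07 in nodose, adjusted p from 0.673 to 1.00), in tissues at which the deletion was not directed. The 10 genes were lower in HepDKO in 10 of 10 cases in arcuate and 9 of 10 in nodose, with a median log2 difference of -0.19 in each tissue against 0.00 and 0.01 over all genes. Without Control ZT22 replicate 1, a Control library with high values, the medians were -0.07 and -0.11, with 10 of 10 and 8 of 10 lower. Some of these differences were small or mixed. At ZT4, ZT10, ZT16 and ZT22 arcuate Pdk4 was then -0.10, -0.06, 0.06 and 0.08. Arcuate Nr3c1 was -0.27, 0.04, 0.005 and -0.02, and ZT4 holds HepDKO ZT4 replicate 3. The 10 genes varied together in part, so these directions are not independent.

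The lowest unadjusted p among the 10 in arcuate was that of Sgk1, with -0.51 (SE 0.183, adjusted p = 0.465), and -0.30 (SE 0.102, adjusted p = 0.495) without the library. Its difference at ZT22 was -1.26 with and -0.42 without. In nodose the lowest was that of Mt1, with -0.68 (SE 0.202, adjusted p = 1.00), and -0.45 (SE 0.137, adjusted p = 1.00) without. Mt2 had the largest difference, -0.89 (SE 0.282) with and -0.46 (SE 0.158) without, and its differences at ZT4, ZT10, ZT16 and ZT22 were 0.18, -0.49, -0.84 and -2.39, the last -0.68 without the library. At ZT16 the nodose Mt2 libraries were at 77.8, 133 and 160.5 CPM in Control and at 54.3, 72.7 and 79.2 CPM in HepDKO, an overlap of 1 library.

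**Figure D5:**
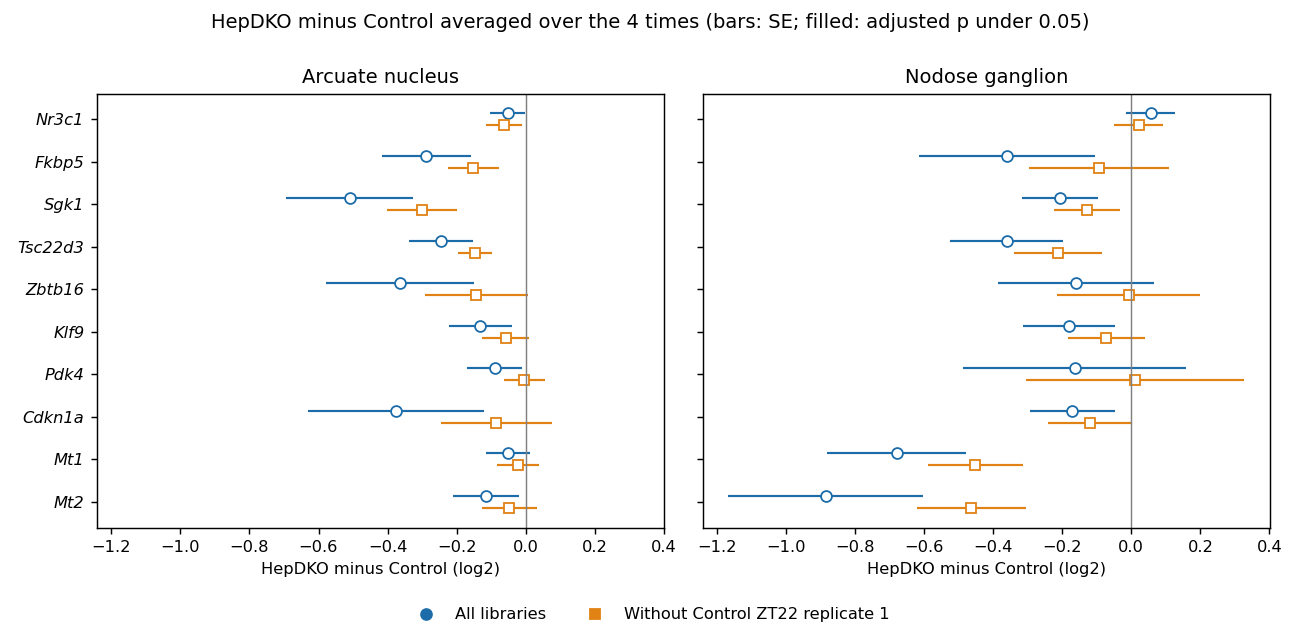
Log2 difference HepDKO minus Control averaged over the 4 times for each gene in arcuate and nodose, with bars of 1 standard error; circles use all libraries and squares leave out Control ZT22 replicate 1. No symbol is filled, since none had an adjusted p under 0.05, and most squares lie nearer to 0 than their circles, as for Mt2 in nodose (-0.89 and -0.46).

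Between tissues, the rhythm differed in 0 of the 10 genes with all libraries, where 0.825% of 13937 genes tested in both differed (Mt1 adjusted p = 0.249, Mt2 0.339). Without Control ZT22 replicate 1 in both tissues, it differed for Mt1 (adjusted p = 0.0194) and Mt2 (adjusted p = 0.00619), against 0.769% of genes. Their amplitudes were then 0.61 and 0.89 in nodose with fitted peaks at ZT13.5 and ZT12.8, and 0.21 and 0.29 in arcuate with fitted peaks at ZT9.46. For Fkbp5, with 0.72 in nodose and 0.33 in arcuate, the difference did not pass with all libraries (adjusted p = 0.522) or without that 1 (0.69 and 0.39, adjusted p = 0.484).

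Other genes known to respond to glucocorticoids, a list of 28 beside the 10, held further genes that passed. The rhythm passed in 5 of 28 tested in arcuate and 2 of 27 in nodose with all libraries, where 3.86% and 1.33% of all genes passed, and in 8 and 5 without Control ZT22 replicate 1, against 4.36% and 1.31%. Per1, a clock gene with a glucocorticoid response element, was in both (amplitude 0.23, peak ZT6.99, adjusted p = 0.00107 in arcuate, and 0.68, peak ZT7.33, adjusted p = 0.000906 in nodose), as was Fam107a, a stress-induced actin-binding protein (0.26, peak ZT16.3, adjusted p = 0.00541, and 0.51, peak ZT14.8, adjusted p = 0.0320). The other 3 in arcuate were Sult1a1 (0.40, peak ZT16.7), Ddit4 (0.21, peak ZT5.55) and Gjb6, a list member named after its values were seen (0.17, peak ZT15.1). Nfkbia and Arrdc2, the latter a list member likewise named afterwards, passed in both tissues only without the library, Plin4 (0.98, peak ZT15.0, adjusted p = 0.000597) in arcuate and Errfi1 in nodose. The median amplitude of the list was 0.11 in arcuate and 0.24 in nodose, and 0.18 and 0.31 without the library.

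The counts of the other lists stand beside the same shares of all genes, 3.86% in arcuate and 1.33% in nodose with all libraries. Of 12 listed receptor partners and cofactors, 4 chaperones passed in arcuate with all libraries, Fkbp4, Hsp90aa1, Hspa8 and Stip1, all fitted to peak in the dark phase between ZT16.8 and ZT19.3 with amplitudes of 0.10 to 0.19; without Control ZT22 replicate 1, Hsp90aa1 no longer passed. In nodose Hspa8 passed (0.38, peak ZT16.4, adjusted p = 0.0166). Genes of corticosteroid handling (0 of 5 tested in arcuate, 0 of 6 in nodose), peptides and receptors of the stress axis (0 of 6 and 0 of 1) and the fasting fuel genes around Pdk4 (0 of 11 in each) had no rhythm that passed with all libraries. Of the metallothionein and zinc genes beside Mt1 and Mt2, Slc30a1, a zinc exporter, passed in nodose (0.34, peak ZT5.16, adjusted p = 0.0148; 1 of 6) and none of 6 in arcuate. Among p53 targets, Ccng1 passed in arcuate and Eda2r in nodose (1 of 8 in each), the latter only with all libraries. Of 6 other KLF factors none passed with all libraries, and Klf2 and Klf15 did in arcuate without Control ZT22 replicate 1. All 7 clock genes listed passed in both tissues, among them Per2 in nodose (1.34, peak ZT12.4), Arntl in nodose (1.79, peak ZT22.8) and Nr1d1 (0.41, peak ZT6.96 in arcuate, and 1.74, peak ZT6.72 in nodose).

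Across libraries the 10 genes varied together in part. Over 24 arcuate libraries the median Pearson r of their 45 pairs on log2 CPM was 0.49, and 0.32 without Control ZT22 replicate 1; over 24 nodose libraries it was 0.27 and 0.19. The closest pairs in arcuate were Fkbp5 with Zbtb16 (0.860) and Mt1 with Mt2 (0.841), and in nodose Mt1 with Mt2 (0.917) and Fkbp5 with Zbtb16 (0.856). Of all genes tested, those most like Fkbp5 in arcuate were Tns3 (0.908), Glul (0.877) and Gpt2 (0.876), and in nodose Prodh (0.873), Cd163 (0.866) and Adarb1 (0.838). Those most like Tsc22d3 were Klf15 (0.908), Sdc4 (0.856) and Hif3a (0.805) in arcuate, and Usp54 (0.839), Aff1 (0.834) and Wee1 (0.805) in nodose. The gene most like Klf9 was Klf13 (0.824) in arcuate and Ucp3 (0.847) in nodose, and the one most like Mt1 was Cox7b (0.840) in arcuate and Fam107a (0.867) in nodose. With Control ZT22 replicate 1 left out, the gene most like Klf9 in arcuate was Nr1d2 (0.863), the one most like Mt1 in arcuate was Chmp2a (0.849), and the one most like Tsc22d3 in nodose was Wee1 (0.800). In the other 5 cases the gene named first was the same (0.835 to 0.902). These values describe libraries that share group, depth and tissue makeup.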

How the data were processed

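RNA was sequenced in 48 pooled libraries, and the authors deposited raw counts per gene symbol in 1 table (25229 symbols, whole numbers, 0 columns without a sample). Per the submitters' processing notes, FastQC 0.11.7, Trim Galore 0.6.10, STAR 2.7.10b and mm10 were used; the counting tool, its annotation and its use of strand are not given in the sources used here, so a gene and its antisense partner cannot be told apart. GENCODE M21 (GRCm38) names matched 24366 symbols. Replicates of a group differed by more than sampling noise (chi-square per degree of freedom at least 2.89 over genes with at least 20 counts).

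Fits were made within a tissue in edgeR 4.0.16 (R 4.3.3, limma 3.58.1): filterByExpr, TMM scaling, 8 group means and the robust quasi-likelihood test. Benjamini-Hochberg adjustment was over all genes kept by the filter, with a threshold of 0.05. These were 16102 in arcuate and 14867 in nodose, and 16300 and 15143 when Control ZT22 replicate 1 was left out before the filter. The rhythm test has the 24-h sine and cosine contrasts of the 4 times. The test between tissues combined both fits. Scripts were tested on simulated data. DESeq2 1.42.0, other scalings, no filter, the replicate block, marker covariates in nodose and leaving out each library were alternatives; leaving out Control ZT22 replicate 1 in both tissues at once, or with the covariates, was chosen after seeing the data. Named are the 10 genes, the floxed genes, up to 4 genes per list, test and tissue that passed, and up to 3 genes most like a member by Pearson r; exceptions are marked. The members and lists were chosen with earlier results of these data known. Counting error and the pools limit precision, and p-values measure the spread between pools. A marker gene is not reported here.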

Additional observations from a re-analysis of the deposited data

How the results depend on the processing

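Counts of genes past the threshold moved by over 1.5 times with DESeq2: in arcuate to 1107 for the rhythm averaged over genotypes, 100 in Control, 405 in HepDKO, 257 for evening minus morning, 25 for genotype and 3 for genotype at any time, and in nodose to 359, 125, 67, 218 and, for genotype, 2. With muscle and adipocyte covariates nodose counts were 55 for Control rhythm, 42 for HepDKO rhythm and 60 for evening minus morning, and 57, 59 and 60 when Control ZT22 replicate 1 was left out as well; evening minus morning of Zbtb16 turned to -0.0493 in the former and the genotype difference of Cdkn1a to 0.0356 in the latter. The cause was not tested.

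Leaving out 1 library at a time, arcuate counts ran from 287 to 1031 for the rhythm, 11 to 117 in Control, 31 to 312 in HepDKO, 73 to 236 for evening minus morning and 0 to 7 for genotype; nodose counts ran from 129 to 276, 15 to 71, 14 to 27, 70 to 164 and 0 to 1, and those of the tissue difference from 64 to 163. Evening minus morning changed sign for Sgk1 (-0.15 to 0.15), Pdk4 (-0.0188 to 0.11) and Cdkn1a (-0.28 to 0.10) in arcuate and Sgk1 (-0.0376 to 0.10) and Pdk4 (-0.40 to 0.0864) in nodose, the nodose genotype difference for Pdk4 (-0.30 to 0.12), and the tissue difference in rhythm turned phase for Nr3c1 (0.00885 to 0.0449) and Sgk1 (0.0212 to 0.15; 0.0644 without Control ZT22 replicate 1 in both tissues). Evening minus morning of arcuate Mt1 passed without HepDKO ZT4 replicate 3 (0.20, adjusted p = 0.0458).

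The labels do not say that a replicate number marks shared mice. Deviations of same-numbered libraries correlated over 0.1 in 8 of 84 pairs in arcuate, 22 of 84 in nodose and 0 of 24 across tissues, with medians of 0.0257 in arcuate and 0.00356 in nodose against -0.0128 and -0.00865 for other numbers, so the numbers were not used to pair libraries. With the replicate block the counts were 677 for the arcuate rhythm and 190 for the nodose rhythm, and no call among the 10 genes changed.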
